A study of Mus musculus with 20 samples.

Results

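These are 10 genes of hepatic glucose output and of the signalling that controls it: Pck1, G6pc, Fbp1, Pcx, Slc37a4, Ppargc1a, Foxo1, Creb3l3, Irs1 and Irs2. They were taken by symbol from the probe sets (groups of short probes read as 1 value) that the platform annotation assigns to a single gene. Where a gene had several, the one of highest mean level across the 20 arrays stood for it. All 10 genes were found among 18193 named genes, and all 10 were among the 11728 genes whose mean reached the median of all probe sets (6.505).

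Liver RNA came from 20 male C57BL/6J mice, an inbred strain, with 1 array per mouse. The mice were bought at 3 weeks of age, ate a low-fat diet (10 kcal% fat) for acclimation, and were 8 weeks old at sampling per the labels. For 4 weeks, 10 mice ate a high-fat diet with 45 kcal% fat (HFD), and the other 10 had 0.05% maple syrup extract (MSXH) mixed into it. Sampling was on day 30 and followed 16 h without food, so high-fat feeding and fasting were common to both groups. The low-fat group and the 0.02% extract group named in the protocol were not analysed here.

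In a fasted liver, new glucose is made from lactate, glycerol and amino acids, and released into blood. Glucagon acts through cAMP and the factor CREB, and glucocorticoid acts through its receptor, to raise transcription of the rate-setting enzymes. Insulin acts through the insulin receptor substrates and the kinase AKT, which keeps FOXO1 out of the nucleus, and so lowers the same genes.

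The values were taken as log2 levels, and differences between arrays on this scale were strongly compressed, with a median SD over the 20 mice of 1.48e-05 among tested genes. They cannot be read as fold changes. Each mouse's level is therefore given in SD units from the mean of the 20 mice, written z, and each diet difference as Hedges' g, the difference of the group means (MSXH minus HFD) in pooled SD units with a small-sample correction. Array medians spanned 4.37e-05, and no pair of arrays held identical values. Hepatocyte markers were abundant, with Alb at 14.74, Apoa1 at 14.59 and Ttr at 14.46, while of the adipocyte markers Adipoq (5.67) and Lep (6.23) lay below the filter and Retn (6.77) and Fabp4 (8.62) above it. In whole liver, fewer cells of a type and less RNA per cell cannot be told apart.

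The first 250 bases upstream of the start sites are shown for 5 of the 6 members that the correlations below join (Pcx is the other), and for Igfbp1, a FOXO1 target correlated with 3 of them. They were read from RefSeq on GRCm38.p6, in which all 10 members have an entry, with 14 start sites in all. Capitals mark the cAMP response element half-site ACGTCA, to which CREB-type factors bind, and the insulin response sequence TGTTTTG, which FOXO factors recognise, each searched on both strands (TGACGT and CAAAACA are the reverse complements). The windows are chr2:173152823-173153072 (plus strand) for Pck1, chr5:51567726-51567975 (minus strand) for Ppargc1a, chr9:44396696-44396945 (plus strand, the first of its start sites) for Slc37a4, chr3:52268087-52268336 (plus strand) for Foxo1, chr11:101367466-101367715 (plus strand) for G6pc and chr11:7197537-7197786 (plus strand) for Igfbp1. Each is written 5′ to 3′ on the strand of its gene.
Pck1: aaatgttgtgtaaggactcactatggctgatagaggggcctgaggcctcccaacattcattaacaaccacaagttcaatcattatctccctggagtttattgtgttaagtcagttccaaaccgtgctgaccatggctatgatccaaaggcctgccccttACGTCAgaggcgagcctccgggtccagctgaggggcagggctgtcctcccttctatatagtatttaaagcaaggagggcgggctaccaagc
Ppargc1a: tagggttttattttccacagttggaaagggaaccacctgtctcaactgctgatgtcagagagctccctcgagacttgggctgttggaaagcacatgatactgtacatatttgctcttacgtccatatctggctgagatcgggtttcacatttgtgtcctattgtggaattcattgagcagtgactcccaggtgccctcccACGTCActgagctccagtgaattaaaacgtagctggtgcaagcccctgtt
Slc37a4: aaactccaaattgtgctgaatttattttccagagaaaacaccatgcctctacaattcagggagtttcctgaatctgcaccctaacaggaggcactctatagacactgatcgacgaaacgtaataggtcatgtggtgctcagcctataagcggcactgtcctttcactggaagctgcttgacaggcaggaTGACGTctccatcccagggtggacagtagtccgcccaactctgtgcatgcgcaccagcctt
Foxo1: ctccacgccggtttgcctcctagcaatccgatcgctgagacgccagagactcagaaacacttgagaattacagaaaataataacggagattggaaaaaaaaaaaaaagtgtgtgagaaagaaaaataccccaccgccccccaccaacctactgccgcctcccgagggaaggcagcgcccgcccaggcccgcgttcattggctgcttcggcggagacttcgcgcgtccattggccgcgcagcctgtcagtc
G6pc: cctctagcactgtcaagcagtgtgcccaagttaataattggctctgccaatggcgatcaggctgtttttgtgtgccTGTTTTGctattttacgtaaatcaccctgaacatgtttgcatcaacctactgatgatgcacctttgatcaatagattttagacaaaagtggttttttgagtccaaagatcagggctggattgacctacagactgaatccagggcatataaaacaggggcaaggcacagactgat
Igfbp1: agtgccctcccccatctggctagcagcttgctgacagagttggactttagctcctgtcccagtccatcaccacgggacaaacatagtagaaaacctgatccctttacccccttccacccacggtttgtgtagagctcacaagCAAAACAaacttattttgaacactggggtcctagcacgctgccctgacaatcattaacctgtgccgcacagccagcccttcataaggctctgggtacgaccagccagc

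The half-site ACGTCA was present in Pck1 (bases -91 to -86 from the start), Ppargc1a (-50 to -45) and Slc37a4 (-61 to -56), which is 3 of 10 members. It occurred in 6.5% of the 32536 distinct upstream windows of this length. The sequence TGTTTTG was present in G6pc (-174 to -168), Irs1, Irs2 and Creb3l3, 4 of 10 members, and in Igfbp1 (-108 to -102), against 5.6% of windows. Of the members, Foxo1, Fbp1 and Pcx had neither. The glucocorticoid half-site AGAACA (reverse complement TGTTCT), which is not capitalised, was found in 1 of 10 members, Creb3l3, and in 16% of windows. The motifs can overlap one another by their end letters, and ACGTCA and TGACGT do so in a full palindromic element, but no matches in the members' windows overlapped. A match describes letters in the window, not a bound site.

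No member differed between the diets past the threshold. Of the 10 members, 0 had a limma adjusted p under 0.05, against a background of 0% of the 11728 genes tested, and 0 had an unadjusted p under 0.05, against 3.62% of genes. A Wilcoxon rank-sum test also gave 0 members, with 3.40% of genes at an unadjusted p under 0.05. On the deposited scaling, g was above 0 for 3 members and below 0 for 7, with a median of -0.239 beside -0.00692 over all genes. Pck1 and Fbp1 turned to g = 0.345 and g = 0.28 when each array was shifted to the same median, and the members' median became -0.0634. The 95% intervals of the members reached down to -1.45 and up to 1.13.

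**Figure D1:**
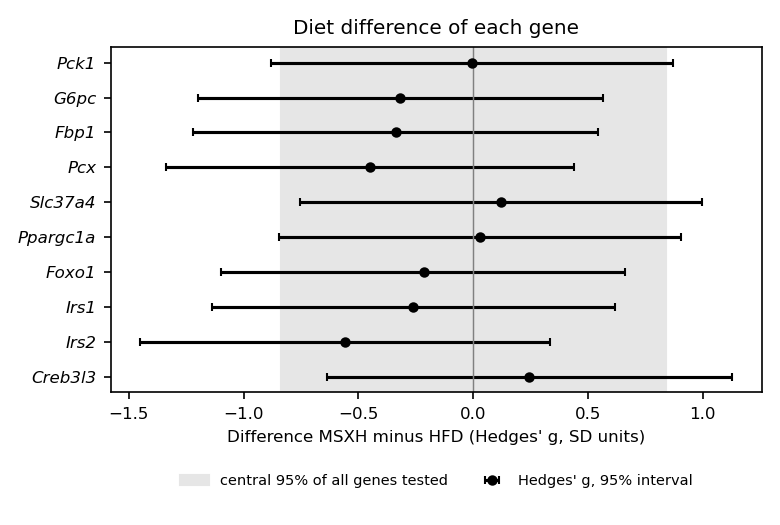
Hedges' g of MSXH minus HFD for each of the 10 genes (points) with its 95% interval (bars), on an axis in SD units, with 10 mice per diet. The grey band is the central 95% of g over all 11728 genes, -0.839 to 0.839, and all 10 points lie inside it, with intervals that cross 0.

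Pck1, the cytosolic enzyme that commits oxaloacetate to glucose synthesis, had a mean level of 13.27. In HFD mice z ran from -2.35 to 1.42 with a median of 0.24, and in MSXH mice from -1.85 to 1.16 with a median of 0.25. The groups overlapped almost completely, and the lowest mice were HFD mouse 5 and then MSXH mouse 4. The diet difference was g = -0.00429 (95% interval -0.881 to 0.872, limma p = 0.992, adjusted p = 0.9998, n = 10 per group).

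G6pc, the catalytic unit that frees glucose from glucose 6-phosphate at the end of the pathway, had a mean level of 12.22. In HFD mice z ran from -1.99 to 1.68 with a median of -0.023, and in MSXH mice from -1.62 to 0.58 with a median of 0.20. All 10 MSXH mice lay within the HFD range. HFD mice 1, 9 and 10 were above every MSXH mouse (z of 1.68, 1.40 and 1.64). The difference was g = -0.317 (95% interval -1.2 to 0.565, limma p = 0.46, adjusted p = 0.9998).

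Pcx encodes pyruvate carboxylase, the mitochondrial enzyme that feeds pyruvate into the pathway, and it had the most unequal spread of the 10. In HFD mice z ran from -2.96 to 1.58 with a median of 0.42, and in MSXH mice from -0.82 to 0.33 with a median of -0.15. All 10 MSXH mice lay inside the HFD range, and 0 of 10 lay above the HFD median, while HFD mouse 3 stood far below the rest. The SD in HFD mice was 3.53 times that in MSXH mice, a ratio reached by 0.0341% of genes tested (4 genes, Pcx included). Without HFD mouse 3 the ratio was 2.11, which 1.55% of genes reached, and without HFD mice 3 and 5 it was 1.62. With each array shifted to the same median it was 1.53, which 6.65% of genes reached. The diet difference was g = -0.448 (95% interval -1.34 to 0.44, limma p = 0.301, adjusted p = 0.9998). It was g = -1.26 without HFD mouse 3 (unadjusted p = 0.00925), where the limma adjusted p was 0.9937, and g = -0.195 with arrays shifted to the same median.

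Fbp1, fructose bisphosphatase, had the smallest variation of the members, with an SD of 4.47e-06 on the deposited scale, at percentile 12.7 among tested genes. Its z ran from -1.52 to 2.06 in HFD mice (median 0.16) and from -2.41 to 0.78 in MSXH mice (median -0.011). MSXH mouse 6 was the lowest of the 20, and the groups overlapped otherwise. Its difference was g = -0.337 (95% interval -1.22 to 0.546, adjusted p = 0.9998 by limma).

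Slc37a4 encodes the transporter that carries glucose 6-phosphate into the endoplasmic reticulum to G6pc. It was among the most variable genes of the liver on this scale, with an SD of 0.00573, at percentile 99.1. In HFD mice z ran from -2.78 to 1.37 with a median of 0.20, and in MSXH mice from -1.19 to 1.31 with a median of 0.22. HFD mice 3 and 5 lay below every MSXH mouse, HFD mouse 9 lay just above every one, and the other HFD mice were spread among them. The difference was g = 0.122 (95% interval -0.756 to 0.999, limma p = 0.775, adjusted p = 0.9998). It changed sign with limma's array weights (g = -0.0597) and without HFD mouse 3 (g = -0.207).

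Ppargc1a encodes PGC-1alpha, a coactivator that CREB induces in fasting and that acts with FOXO1 on the enzyme genes. Its SD of 0.0126 stood at percentile 99.5. In HFD mice z ran from -1.55 to 2.34 (median -0.11), and in MSXH mice from -1.06 to 1.23 (median -0.26). HFD mouse 10 was the highest and HFD mice 3, 5 and 4 the lowest of the 20, so the HFD range enclosed all MSXH mice. The difference was g = 0.0311 (95% interval -0.846 to 0.908, limma adjusted p = 0.9998), and it was g = -0.134 without HFD mouse 3.

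Foxo1, the factor through which insulin restrains these genes, had z from -1.62 to 1.78 in HFD mice (median 0.24) and from -1.63 to 1.52 in MSXH mice (median -0.058), with g = -0.216 (95% interval -1.1 to 0.663). Creb3l3, a liver membrane-bound transcription factor of fasting and lipid metabolism, had z from -2.17 to 1.09 (median 0.0071) and from -1.87 to 1.61 (median 0.26), with g = 0.245 (95% interval -0.635 to 1.13). The ranges of the diets overlapped along nearly their whole length for Foxo1. For Creb3l3, 8 of 10 MSXH mice lay within the HFD range, and MSXH mice 7 and 10 (z of 1.60 and 1.61) lay above every HFD mouse. The limma adjusted p was 0.9998 for each gene.

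Irs1 and Irs2 are the adaptors that couple the insulin receptor to AKT, and Irs2 is a target that FOXO1 raises in fasting. Irs2 had the largest g of the 10, at -0.559 (95% interval -1.45 to 0.334, limma p = 0.2, adjusted p = 0.9998). Its z ran from -0.78 to 1.54 in HFD mice (median 0.38) and from -1.86 to 1.45 in MSXH mice (median 0.0043). MSXH mice 1, 2, 8 and 9 lay below every HFD mouse, and the other 6 lay within the HFD range. Irs1 had z from -1.64 to 1.39 (median 0.38) and from -1.94 to 0.77 (median 0.10), with g = -0.263 (95% interval -1.14 to 0.617).

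**Figure D2:**
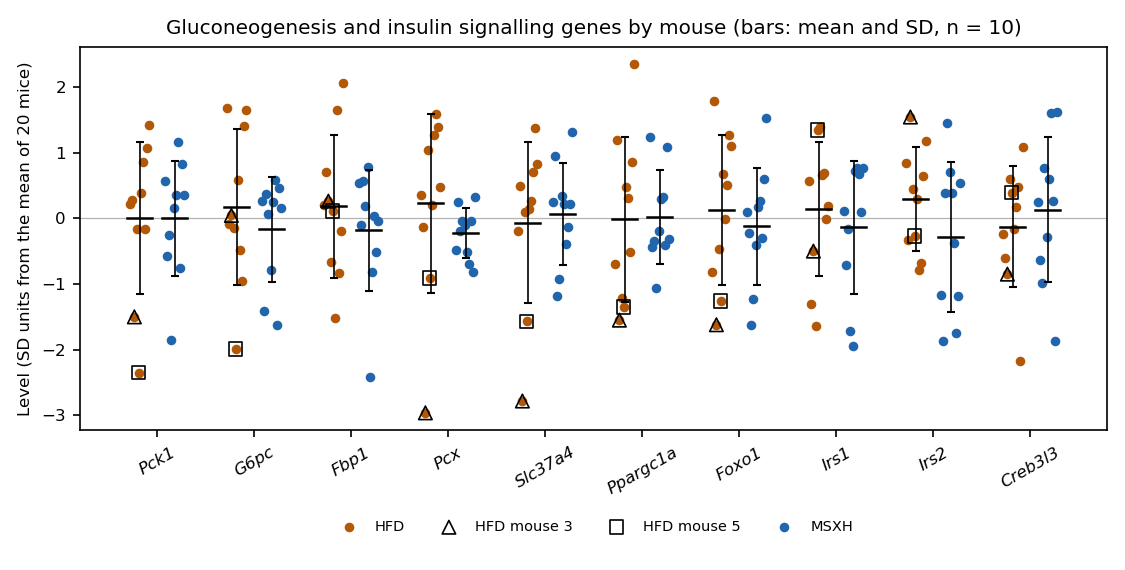
Level of each of the 10 genes in each mouse, in SD units from the mean of the 20 mice (vertical axis), for HFD (brown) and MSXH (blue), with bars for the mean and SD of 10 mice. HFD mice 3 (triangle) and 5 (square) lie at the bottom for Pck1, Slc37a4, Ppargc1a and Foxo1 among HFD mice, and MSXH mice of Pcx sit in a narrow band inside the HFD range.

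Single mice stood at the same end for several members. HFD mouse 10 was among the 5 highest of the 20 for 9 of the 10 genes. HFD mice 3 and 5 were each among the 5 lowest for 6 genes. These ranks were not taken over all genes, nor with arrays shifted to the same median. They are therefore not known to be particular to these members. Pck1, Slc37a4, Ppargc1a and Foxo1 were all below their means in HFD mice 3 and 5 and in MSXH mice 3, 4 and 8. The SD was larger in HFD than in MSXH mice for 8 of 10 members, against 51% of all genes, and for 5 of 10 without HFD mice 3 and 5, against 42.8%.

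Members were then correlated across the 20 mice, as Pearson's r and Spearman's rho with two-sided permutation p-values (100000 permutations) adjusted over the 45 pairs. By r, 8 pairs passed an adjusted p of 0.05, all with positive r, and by rho 6 did, all 6 among those 8. The absolute r of the 8 was at least 0.578, a size reached by 4.00% of all pairs of genes tested. An absolute r of 0.5 or more was found in 9 member pairs (20%), against 8.47% of all pairs, and all 9 were positive, against 5.04% of all pairs with an r of 0.5 or more. The 8 pairs joined Pck1, G6pc, Pcx, Slc37a4, Ppargc1a and Foxo1. Fbp1, Irs1, Irs2 and Creb3l3 were in none.

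Pck1 and Ppargc1a were correlated with r = 0.800 and rho = 0.839 (permutation p = 2e-05 for each, adjusted p = 0.00045 and 0.0009). Both diets showed it, with r = 0.811 in HFD and 0.799 in MSXH mice. It was 0.796 without the 2 mice most distant from the Pck1 median, and 0.744 without HFD mice 3 and 5 (adjusted p = 0.0128). Slc37a4 and Foxo1 had r = 0.812 and rho = 0.756 (permutation p adjusted to 0.00045 and 0.00435), with r = 0.846 in HFD and 0.803 in MSXH mice. Without HFD mice 3 and 5, which are the 2 farthest for Slc37a4, it was 0.783 (adjusted p = 0.00585). These were the pairs among the 8 that passed without those 2 mice.

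The other 6 pairs did not pass without HFD mice 3 and 5. Ppargc1a and Foxo1, the coactivator and its factor, had r = 0.725 (permutation p adjusted to 0.0042), with 0.865 in HFD and 0.458 in MSXH mice. Pck1 and Foxo1 had r = 0.700 (adjusted p = 0.00477), with 0.751 and 0.628. Both kept an r of at least 0.598 without HFD mice 3 and 5, with adjusted p-values of 0.0583 and 0.0742. Pck1 and G6pc, the committing and the final enzyme, had r = 0.621 and rho = 0.665 (permutation p adjusted to 0.0215 and 0.0169). Their r was 0.585 without the 2 mice farthest for Pck1, and 0.439 without HFD mouse 5 and MSXH mouse 8, the farthest for G6pc (permutation p = 0.0694).

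Slc37a4 gave the remaining 3 pairs, and the r of each was lower without HFD mice 3 and 5. Pcx and Slc37a4 had r = 0.746 (permutation p adjusted to 0.00427), with 0.903 in HFD and 0.340 in MSXH mice, and r = 0.437 without those 2 mice (adjusted p = 0.318). Pck1 and Slc37a4 had r = 0.673 (adjusted p = 0.0123) and 0.445 without them. Slc37a4 and Ppargc1a had r = 0.578 (adjusted p = 0.0405) and 0.365 without them. By rho, Pcx and Slc37a4 passed (rho = 0.598, adjusted p = 0.0469), but neither Pck1 and Slc37a4 (adjusted p = 0.132) nor Slc37a4 and Ppargc1a (adjusted p = 0.108) passed.

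**Figure D3:**
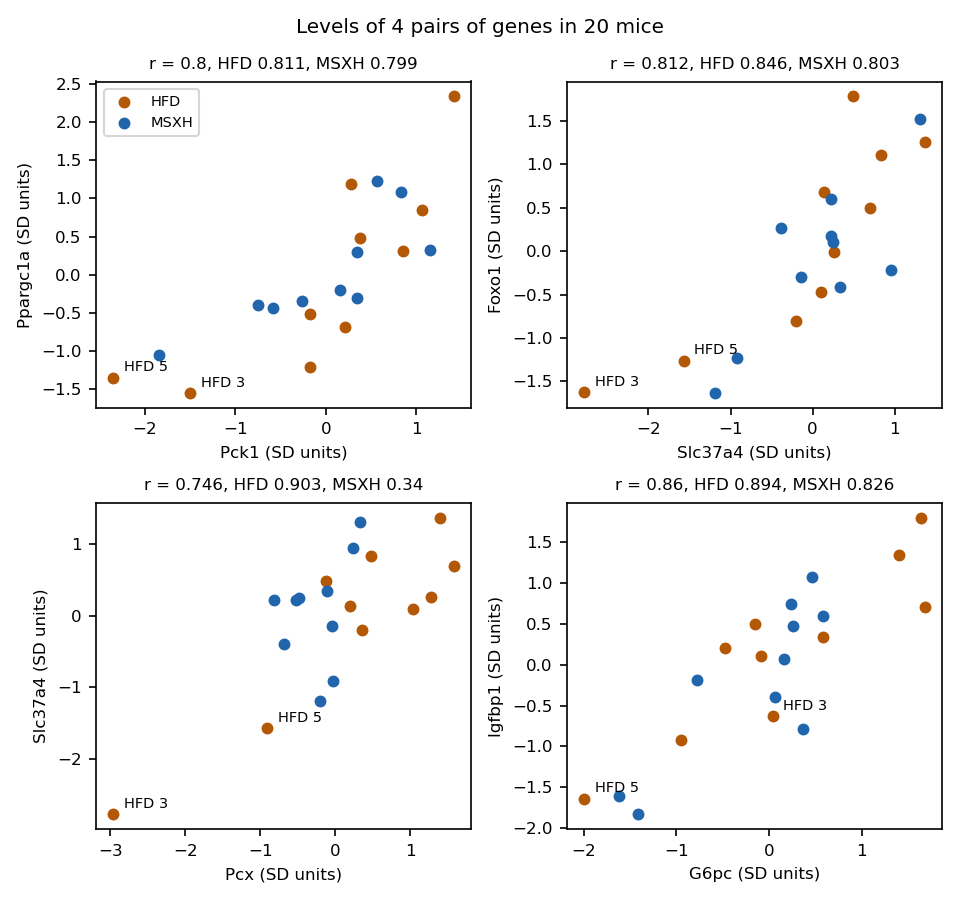
Levels of 4 pairs of genes in the 20 mice (axes in SD units from the mean of the 20 mice; brown HFD, blue MSXH), with r over all mice and within each diet above each panel. HFD mice 3 and 5 sit at the lower left of the Slc37a4 panels, and the Pck1 with Ppargc1a and G6pc with Igfbp1 panels have r of at least 0.799 in each diet.

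Array medians without control probe sets spanned 0.000176 from lowest to highest. On the deposited scale Fbp1 and Creb3l3 spanned less over the 20 mice (2e-05 and 2.28e-05, SD 4.47e-06 and 6.03e-06). Pck1 spanned 0.000196 (SD 5.22e-05), Pcx 0.000378 (SD 8.33e-05) and Irs2 0.000391 (SD 0.000115), more than the medians did. With each array shifted to the same median, r of Pck1 was -0.0796 with Ppargc1a, -0.0291 with Foxo1, 0.104 with Slc37a4 and 0.23 with G6pc. Another probe set of Pck1 had an SD of 0.00102 and followed the first with r = 0.903 (permutation p = 1e-05). With that probe set and the same shift, 10 member pairs passed, not all of them among the pairs above, and r with Ppargc1a was 0.801 (permutation p adjusted to 0.00075). Pck1 and Slc37a4 also passed there (r = 0.555, adjusted p = 0.0438), but Pck1 and Foxo1 (r = 0.482, adjusted p = 0.0718) and Pck1 and G6pc (r = 0.54, adjusted p = 0.0573) did not. Pcx and Slc37a4 had r = 0.349 under both settings (adjusted p = 0.261 and 0.225).

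Probe sets of 1 gene mostly moved together. The 4 other probe sets of Ppargc1a had r of 0.95 to 0.984 with the one used, and those of Foxo1 had 0.941, 0.959 and 0.4. The lowest belonged to a probe set with a mean of 6.33, below the filter. For Pck1 the remaining probe set, at a mean of 5.58, had r = -0.148. The array carries control probe sets along Pcx, and that at its 3′ end had r = 0.982 with the one used, those in its middle 0.743 and 0.422, and that at its 5′ end 0.203.

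The r of a pair did not differ between the diets past the threshold for any of the 45 pairs (permutation of diet labels, smallest adjusted p = 0.218). The 2 of 45 pairs with an unadjusted p under 0.05 both involved Pcx. A threshold of 0.05 lets some pairs through by chance, and the share of all gene pairs under it was not counted. These 2 are therefore not known to be more than chance gives. Pcx and Ppargc1a had r = 0.400 in HFD and -0.759 in MSXH mice (permutation p = 0.00793), and Pck1 and Pcx had 0.674 and -0.598 (permutation p = 0.0097). In MSXH mice Pcx varied over a narrow range, from z = -0.82 to 0.33.

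The members were also set against 7 genes that respond to fasting, glucocorticoid or insulin, 70 pairs in all. By r, 15 pairs passed, all with positive r, and all 15 also passed by rho, by which 19 did. Their r was at least 0.615, a size that 2.62% of all gene pairs reached. Pck1, Slc37a4, Ppargc1a, Foxo1 and G6pc were in these 15, and Fbp1, Pcx, Irs1, Irs2 and Creb3l3 in none. Negative pairs passed by rho only. These were Pck1 with Srebf1 (rho = -0.591, permutation p adjusted to 0.0346) and Slc37a4 with Pdk4 (rho = -0.567, adjusted p = 0.0394). Srebf1 and Pdk4 are among the 7 genes.

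Tat, tyrosine aminotransferase, Fkbp5, a chaperone partner of the glucocorticoid receptor, and Tsc22d3, which encodes GILZ, are all induced by glucocorticoid. Each was correlated with Pck1, Slc37a4, Ppargc1a and Foxo1, 12 of the 15 pairs. With Tat, r was 0.891 for Pck1, 0.852 for Slc37a4, 0.803 for Foxo1 and 0.771 for Ppargc1a (permutation p adjusted over 70 pairs to at most 0.000262). With Tsc22d3 it was 0.823 for Pck1, 0.789 for Foxo1, 0.779 for Slc37a4 and 0.736 for Ppargc1a. With Fkbp5 it was 0.838 for Slc37a4, 0.786 for Foxo1, 0.739 for Pck1 and 0.615 for Ppargc1a. G6pc had r of 0.378 to 0.393 with these 3 genes, and 0 of the 3 passed by r, while Tat passed by rho (rho = 0.574, adjusted p = 0.039). Without HFD mice 3 and 5, Fkbp5 lost its pairs with Pck1 (r = 0.488) and Ppargc1a (r = 0.434). The 4 Pck1 pairs passed on the deposited scaling but had r of 0.0212 to 0.218 with arrays shifted to the same median.

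Igfbp1, a secreted binding protein of insulin-like growth factors that FOXO1 raises and insulin lowers, was the partner of G6pc. Their r was 0.860 and rho 0.798 (permutation p = 1e-05 and 8e-05, adjusted p = 0.000175 and 0.000933), with 0.894 in HFD and 0.826 in MSXH mice. Leaving out any single mouse kept r between 0.833 and 0.895. Igfbp1 also passed with Pck1 (r = 0.774, adjusted p = 0.000509) and Ppargc1a (r = 0.664, adjusted p = 0.0064). Irs1, Irs2 and Creb3l3, which hold the letters TGTTTTG as G6pc and Igfbp1 do, had r of 0.023, 0.383 and -0.0299 with Igfbp1, and the windows of Pck1 and Ppargc1a lack those letters. Only these exact letters were searched, and only within 250 bases. Whether the letters bear on the correlations was not tested.

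Creb3l3 and Pdk4, a fasting-induced kinase that restrains pyruvate oxidation, had r = 0.551 (permutation p = 0.0118, adjusted p = 0.0518) and rho = 0.559 (adjusted p = 0.0437), so the pair passed by rho only. Irs1 had no companion with an absolute r above 0.373, and Irs2 none above 0.41. Within the member list, the strongest pair of Irs2 was with G6pc (r = 0.540, permutation p = 0.0141, adjusted p = 0.0703), which did not pass. The r of a member with a companion did not differ between the diets for any of the 70 pairs, with 5 at an unadjusted permutation p under 0.05 and a smallest adjusted p of 0.335. The share of all gene pairs under that unadjusted p was not counted here either.

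**Figure D4:**
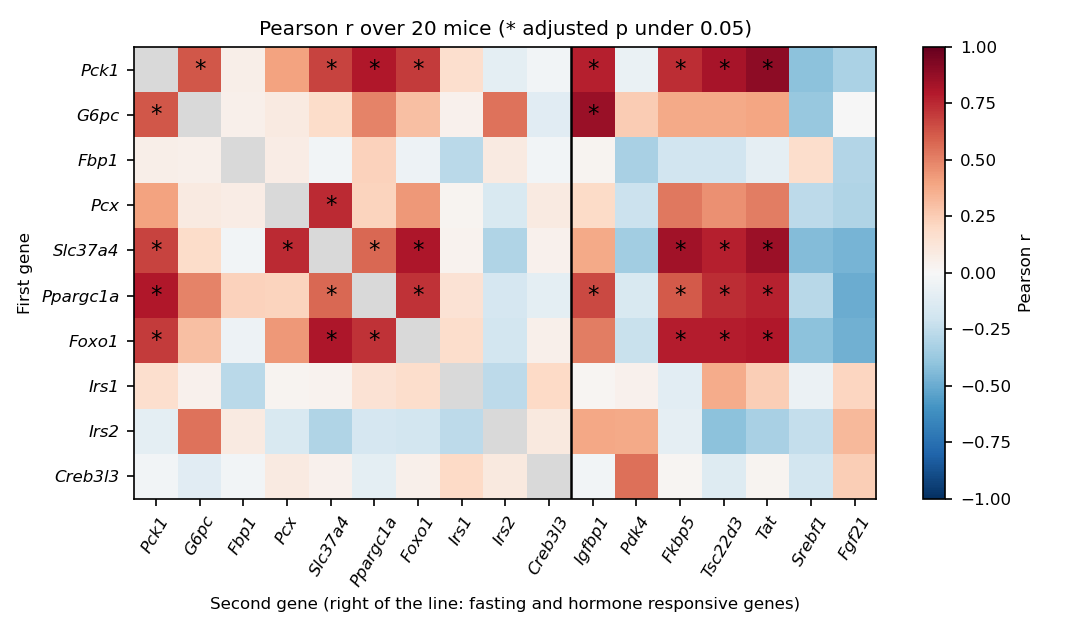
Pearson r over the 20 mice for each member (rows) with each other member (left of the line) and with 7 fasting, glucocorticoid or insulin responsive genes (right of the line); red is positive, blue negative, and an asterisk marks an adjusted p under 0.05. Pck1, Slc37a4, Ppargc1a and Foxo1 share dark cells with Fkbp5, Tsc22d3 and Tat, G6pc has its darkest cell with Igfbp1 (0.860), and the rows of Fbp1, Irs1, Irs2 and Creb3l3 hold no asterisk.

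Over all 11728 genes, the share with an absolute r of at least 0.5 to a member differed widely, from 21.7% for Slc37a4, 15.6% for Foxo1, 12.5% for Pcx, 10.4% for Pck1 and 8.98% for Ppargc1a to 2.5% for G6pc, 2.41% for Creb3l3 and 1.91% for Irs2. It was 8.59% for Fbp1 and 7.33% for Irs1. Slc37a4 thus had such an r with many genes, and G6pc, Creb3l3 and Irs2 with few.

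The 3 genes of highest r with each member over the 20 mice are given as a description. For Pck1 they were Cebpb (0.904), Tat and Cebpd (0.883), of which Cebpb and Cebpd encode C/EBP factors that bind and activate the Pck1 promoter. For G6pc they were Igfbp1, Slc25a25 (0.853), a mitochondrial carrier of ATP-Mg and phosphate, and Cd14 (0.732). For Slc37a4 they were Arg1 (0.964), the last enzyme of the urea cycle, Aprt (0.947) and Coa6 (0.944). For Ppargc1a they were Pptc7 (0.93), a mitochondrial phosphatase, Cyth1 (0.908) and Ciart (0.906), a repressor of the circadian clock. For Foxo1 they were Mpzl2 (0.918), Susd6 (0.918) and Mknk2 (0.898).

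The nearest genes of the other members are these. For Pcx they were Ddt (0.884), Alkbh3 (0.835) and Tmem147 (0.819), and for Irs1 Gm20346 (0.828), Nr5a2 (0.818), a nuclear receptor of liver, and Zfyve1 (0.8). For Creb3l3 they were Inhbe (0.757), which encodes the hepatokine activin E, Kat7 (0.709) and Retsat (0.7). Those of Fbp1 were Ooep (0.756), Reg2 (0.735) and Zp2 (0.728), and those of Irs2 were 9430037G07Rik (0.699), Naif1 (0.687) and Prpf6 (0.679).

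The other genes of the pathway gave 0 calls between the diets in every list. Of 24 cAMP-linked and transcriptional regulators of gluconeogenesis, 8 had g above 0 and 16 below, with a median of -0.123 that was 0.137 when arrays were shifted. Prkar1a, the regulatory subunit that holds protein kinase A inactive, was the 1 of 24 at an unadjusted limma p under 0.05, against 3.62% of all genes (g = -1.15, 95% interval -2.1 to -0.204, p = 0.0147, adjusted p = 0.9998). Of 13 enzymes of the shared glycolytic and mitochondrial steps tested, 3 had g above 0 and 10 below, with a median of -0.273 that became 0.18 once arrays were shifted to equal medians. Of 22 hormone receptors and proximal insulin signalling genes, 7 were above and 15 below (median -0.0616, and 0.272 with the shift). Of 16 FOXO1 and fasting targets, 8 lay on each side, of 8 glucocorticoid-induced genes 3 above and 5 below, and of 8 insulin-induced genes 6 above and 2 below. Upward moves with the shift were not particular to these lists. The median of hepatocyte markers went from -0.217 to 0.309 and that of pericentral markers from -0.124 to 0.198. Those of endothelial (0.515 to 0.362) and exocrine pancreas markers (0.136 to 0.0967) went down.

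The same lists show which genes went with each member across mice. Of the 8 glucocorticoid-induced genes, 8 had r of at least 0.5 with Foxo1, 7 with Pck1, 7 with Slc37a4, 6 with Ppargc1a, 2 with Pcx, 1 with G6pc and 0 with Fbp1, Irs1, Irs2 and Creb3l3. Over all genes, r of at least 0.5 was found with Foxo1 in 8.04%, with Slc37a4 in 9.93%, with Pcx in 6.35%, with Pck1 in 5%, with Ppargc1a in 3.8% and with G6pc in 1.44% of genes. Of the 16 FOXO1 and fasting targets, 7 reached it with Pck1, 6 with Foxo1, 5 each with Slc37a4 and Ppargc1a, 4 with Pcx and 1, Igfbp1, with G6pc. The FOXO1 and glucocorticoid lists include companion genes, so their counts partly repeat the companion pairs. Of the 13 glycolytic and mitochondrial enzymes, 7 reached it with Slc37a4 and 6 each with Pcx and Foxo1. Other lists went both ways or against a member: of the 24 cAMP-linked regulators, 6 were at 0.5 or above and 4 at -0.5 or below with Pck1, and of the 22 hormone receptors and insulin signalling genes, 0 and 4 with Slc37a4. Over all genes, r of -0.5 or below was found with Pck1 in 5.38% and with Slc37a4 in 11.8% of genes.

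Markers of other liver cells moved with some members. All 7 of 7 Kupffer cell markers (resident macrophages) had r of -0.543 to -0.772 with Slc37a4, against 11.8% of all genes at -0.5 or below. For Cd5l r was -0.857 in HFD and -0.843 in MSXH mice, and for Cd68 -0.927 and -0.665, whereas Marco had -0.682 and -0.272 and Adgre1 -0.802 and -0.475. At -0.5 or below were also 4 of 7 with Pcx, 2 of 7 with Foxo1 and 0 of 7 with Pck1, G6pc and Ppargc1a. Over all genes, the share at -0.5 or below was 6.14% with Pcx, 7.52% with Foxo1, 5.38% with Pck1, 5.18% with Ppargc1a and 1.06% with G6pc. Of 6 stellate cell markers, 4 were at -0.5 or below with Slc37a4, and of 7 endothelial markers 1 was. The summed Kupffer marker level (a sum of log2 values) ran from 57.6319 to 57.6414 in HFD and from 57.6292 to 57.6404 in MSXH mice, and that of stellate markers from 58.4194 to 58.5193 and from 58.4190 to 58.5572. The stellate sum covers 7 measured markers, of which Col1a1 (6.37) lay below the filter. The part of these cell markers in the correlations of Slc37a4, Pcx and Foxo1 was not tested.

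Among 7 tested periportal markers, the zone where gluconeogenesis is most active, Slc37a4 and Foxo1 each had 5 at r of at least 0.5, Ppargc1a had 4 and Pcx 3. Pck1, itself a periportal marker, had 4 of the 6 others. With each of Slc37a4, Foxo1 and Pck1, 1 periportal marker was at -0.5 or below (-0.657, -0.612 and -0.547). Of 7 pericentral markers, 1 had r of at least 0.5 with each of Pck1, Slc37a4 and Pcx, and 0 with Ppargc1a and Foxo1. The periportal list includes Pck1 and G6pc, so its counts share genes with the member pairs.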

How the data were processed

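The series holds 20 arrays of liver RNA, 1 per mouse. Per the labels' protocols, RNA was extracted with TRIzol and RNeasy, and biotin-labelled copies were made from 200 ng with the 3' IVT Express method, which favours the ends of transcripts. The authors deposited values for 45101 probe sets, taken here as log2 levels (5.2 to 14.96), with background correction, normalization and summary not given in the sources used here, nor any scan date or batch. Of the probe sets, 64 were controls, 34945 had 1 gene, 932 several and 9160 none. Gene numbers of 34741 were found in RefSeq, and 0 symbols were updated.

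The diet test was limma (version 3.58.1, R 4.3.3; lmFit, eBayes) over 11728 genes, adjusted by Benjamini-Hochberg, and a gene was called at an adjusted p under 0.05. Correlations used 100000 permutations in Python 3.11.15 (numpy 2.4.6), and figures matplotlib 3.10.9. Motifs were searched by letters. Named genes were the members, the companion genes, the 3 nearest genes of each member, up to 3 genes per pathway list at an unadjusted p under 0.05, and markers used to check the tissue. The members and lists were chosen with earlier results of these data known. The procedures were tested on simulated data. Signal over background is not known, and precision is limited by how many arrays there are. Alternatives covered scaling, filter, probe set, variance model, array weights, test, block and leaving out each array. The main tests did not pair mice by replicate number. Same-numbered arrays had correlations of their deviations from the group means of -0.133 to 0.369. Their mean was 0.053, against -0.00601 for arrays of different numbers, and whether the numbers pair the mice was not tested.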

Additional observations from a re-analysis of the deposited data

Results flagged for a closer look

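Fbp1 in MSXH mouse 6 lay below the other 9 MSXH mice. Its gap to the next mouse was 0.502 of the range of the group, above Dixon's 95% critical value for 10 samples. It was the 1 set that passed of 34 sets of 10 mice examined, where chance gives about 5%, or 1.7 sets. Without that mouse the diet difference of Fbp1 was g = -0.118, in place of -0.337.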

How the results depend on the processing

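In all 29 alternatives, 0 members passed between the diets (smallest adjusted p = 0.7972), and 24 of 284 member differences changed sign. Those were Pck1 (g = 0.345) and Fbp1 (0.28) with arrays shifted to the same median, Slc37a4 with array weights (-0.0597), and, over mice left out in turn, Pck1 (-0.292 to 0.203), Slc37a4 (-0.207 to 0.28) and Ppargc1a (-0.134 to 0.325). The filter, variance model, rank test and block settings leave g as it was, so its sign could not change there. Another probe set altered g for Pck1 only. The 284 therefore include many differences whose sign was fixed in advance. Members at an unadjusted p under 0.05 numbered 0 to 1 over mice left out, the 1 being Pcx without HFD mouse 3. Other members kept their sign, with g of G6pc at -0.623 to -0.165, Foxo1 -0.425 to -0.0452, Irs1 -0.483 to -0.0805 and Creb3l3 0.0352 to 0.505 over mice left out. The cause of these changes was not tested.

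The 8 correlated member pairs became 4 within HFD and 0 within MSXH, where 10 mice remained, 2 without HFD mice 3 and 5, and 5 to 9 over mice left out (5 without HFD mouse 5). After quantile normalization 2 passed, of the 10 pairs that still had a value, since 5 members then lost their spread. With arrays shifted to the same median 11 passed, but of the 8 only the pairs that Slc37a4, Ppargc1a and Foxo1 form with each other were among them. The rest of the 11 were new pairs, and r of Pck1 was -0.0796 with Ppargc1a and -0.0291 with Foxo1. The 15 companion pairs became 0 within MSXH, although 13 had an absolute r of at least 0.5 in both diets, 12 within HFD, 10 after quantile normalization (of 35), 21 with arrays shifted, 14 without HFD mice 3 and 5, and 15 to 18 over mice left out. The 21 did not include the 4 Pck1 pairs of the 15, so some of the 21 were new. With the replicate number as a block (10 differences within numbers), 1 member pair (Pcx and Slc37a4, r = 0.875, adjusted p = 0.0261) and 4 companion pairs passed, and 0 members differed by diet. The pairs without HFD mice 3 and 5, the block correlations, the shift with the other Pck1 probe set, the shifted SD ratio of Pcx, and the within-diet and left-out companion counts were chosen after seeing the data.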
